A study of Homo sapiens with 12 samples.

Results

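The cytosolic ribosomal protein genes encode the protein part of the ribosome outside mitochondria. They were taken by symbol: every protein-coding gene named RPL or RPS plus a number, with RPLP0, RPLP1, RPLP2 and RPSA, without pseudogenes, the RPS6 kinases and the tissue-restricted or diverged copies such as RPL39L and RPS27L. The rule found 83 of the 62702 gene entries, of which 33 encode small-subunit proteins, 47 encode large-subunit proteins and 3 are readthrough loci that join a ribosomal protein gene to its neighbour. FAU, which encodes a ribosomal protein under another name, falls outside it. RNA came from MCF10AT cells, a Ras-transformed human breast epithelial line derived from MCF10A, in 4 groups of 3 libraries. All groups carried the genotype hPRLrL/hPRLrI, a pair of human prolactin receptor forms known as long and intermediate, either as such (the intact pair) or with the I-tail deleted (the deleted pair). Each pair was either left untreated or given prolactin (PRL) at 250 ng/ml for 2 h, after 24 h without serum. The labels name biological replicates for the treated cells and do not say whether each receptor pair is 1 clone or several, nor whether untreated libraries came from separate cultures, so p-values measure the spread between these libraries.

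A ribosome is built from a small subunit, which reads the mRNA, and a large subunit, which forms peptide bonds and releases the chain through an exit tunnel. Cells make its proteins in matched amounts, and excess copies are degraded. Most ribosomal protein mRNAs begin with a terminal oligopyrimidine (TOP) tract, a C followed by an unbroken run of C and T at the cap, through which growth factor and mTOR signalling control their translation. That control acts on ribosome loading, so it can change protein synthesis with no change in mRNA counts. In the mammary gland, prolactin drives the growth and secretory differentiation of epithelial cells, which raises the demand for ribosomes.

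The transcription starts of 67 of the 83 genes could be matched in RefSeq (GRCh38.p14). In 48 of these 67 genes (71.6%) at least 1 annotated start was a C followed by at least 4 further pyrimidines on the sense strand, against 5.14% of all 27305 genes with a start in the same table. The windows below hold 15 bases before and 15 bases after the start, 5′ to 3′, with the pyrimidine run in capitals, and were chosen because their genes carry the levels and comparisons that follow. The last 3 have no such run at the annotated start.
RPL28, chr19:55385917-55385946, plus strand: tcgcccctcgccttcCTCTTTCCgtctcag
RPL13A, chr19:49487593-49487622, plus strand: cgacaaaacctcctcCTTTTCCaagcggct
RPLP0, chr12:120201097-120201126, minus strand: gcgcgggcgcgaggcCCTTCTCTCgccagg
RPLP1, chr15:69452803-69452832, plus strand: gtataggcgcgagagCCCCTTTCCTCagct
RPLP2, chr11:809952-809981, plus strand: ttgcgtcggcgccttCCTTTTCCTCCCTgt
RPS6, chr9:19380222-19380251, minus strand: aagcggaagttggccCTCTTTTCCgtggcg
RPSA, chr3:39406705-39406734, plus strand: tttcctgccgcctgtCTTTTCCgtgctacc
RPL11, chr1:23691791-23691820, plus strand: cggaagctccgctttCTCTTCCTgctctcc
RPS27A, chr2:55232673-55232702, plus strand: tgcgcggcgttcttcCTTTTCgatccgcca
RPS12, chr6:132814554-132814583, plus strand: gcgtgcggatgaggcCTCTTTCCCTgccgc
RPL24, chr3:101686704-101686733, minus strand: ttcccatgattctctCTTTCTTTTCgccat
RPS3A, chr4:151099613-151099642, plus strand: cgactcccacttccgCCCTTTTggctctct
RPL34, chr4:108620561-108620590, plus strand: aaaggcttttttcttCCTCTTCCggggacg
RPL36A, chrX:101390996-101391025, plus strand: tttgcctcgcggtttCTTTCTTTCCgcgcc
RPS10, chr6:34426055-34426084, minus strand: ccgcgcatgctccttCCTTTCCagccccgg
RPL22, chr1:6199581-6199610, minus strand: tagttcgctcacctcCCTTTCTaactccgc
RPS7, chr2:3575245-3575274, plus strand: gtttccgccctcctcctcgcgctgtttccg
RPS4X, chrX:72277234-72277263, minus strand: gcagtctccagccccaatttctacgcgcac
RPL36AL, chr14:49620612-49620641, minus strand: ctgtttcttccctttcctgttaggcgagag

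The tract was found at both ends of the range of levels. It stands at the start of RPL28 and RPL13A, which were among the highest per length. RPS10 and RPL36A, which were the lowest, also have it, but their levels are uncertain, as described below. RPL17, also among the lowest, has no such run at its annotated start. RPS12 and RPL24, the steadiest genes across libraries, and RPS3A, which differed most between the receptor pairs under PRL, also begin with it. Among comparison lists, 12 of 16 matched genes of the translation factors and other mRNAs known for TOP control had such a start, as did 6 of 69 mitochondrial ribosomal protein genes (8.7%).

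The 12 libraries held 36120808 to 57324865 counts and 19073 to 25200 genes with a count, and mitochondrially encoded genes took 9.93% to 14.6% of the counts. Of the 9 epithelial and basal markers, including EPCAM, CDH1 and the keratins KRT5 and KRT14, 9 were at 1 CPM or more, with a summed level of 1924 to 10640 CPM. The leukocyte markers summed to at most 0.2 CPM. Of the fibroblast markers 3 of 4 were at 1 CPM or more, with a sum between 401.2 CPM in intact PRL and 605.9 CPM in deleted PRL libraries, and the endothelial markers between 1.14 and 3.07 CPM. The part of these markers in the results was not tested. CPM are counts relative to the library total after TMM scaling, which sets libraries to a common level over most genes. Of the 83 genes, 78 passed the count filter. The 3 readthrough loci and both Y-linked RPS4Y copies did not pass it.

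Ribosomal protein genes were among the most abundant transcripts, and their levels spread widely. By mean CPM, 21 of the 83 stood among the 100 highest of all genes and 54 among the 500 highest. The 5 highest by CPM carried 27.7% of the summed ribosomal protein CPM and the 20 highest 62.6%. Levels of different genes are compared per kilobase of a middle-length coding transcript, since longer transcripts give more fragments. RPS2, a small-subunit protein at the mRNA entry channel, was the highest with 6198 ± 1389 CPM per kb (SD, n = 12). RPL28 followed with 4605 ± 1491, RPL13A with 4304 ± 697.7 and the stalk gene RPLP1, lower again, with 4014 ± 684.8 CPM per kb. RPS2 (4579 to 9107 CPM per kb) exceeded RPL28 (3083 to 7202) in 12 of 12 libraries, although their ranges overlapped. RPL28 exceeded RPL13A in 6 of 12 libraries and RPL13A exceeded RPLP1 in 8 of 12, so their order was not fixed. The order depends on the transcript taken. Per kb of the longest annotated transcript RPS2 was again first, RPL28 dropped to rank 28 and RPL8 took rank 2.

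**Figure D1:**
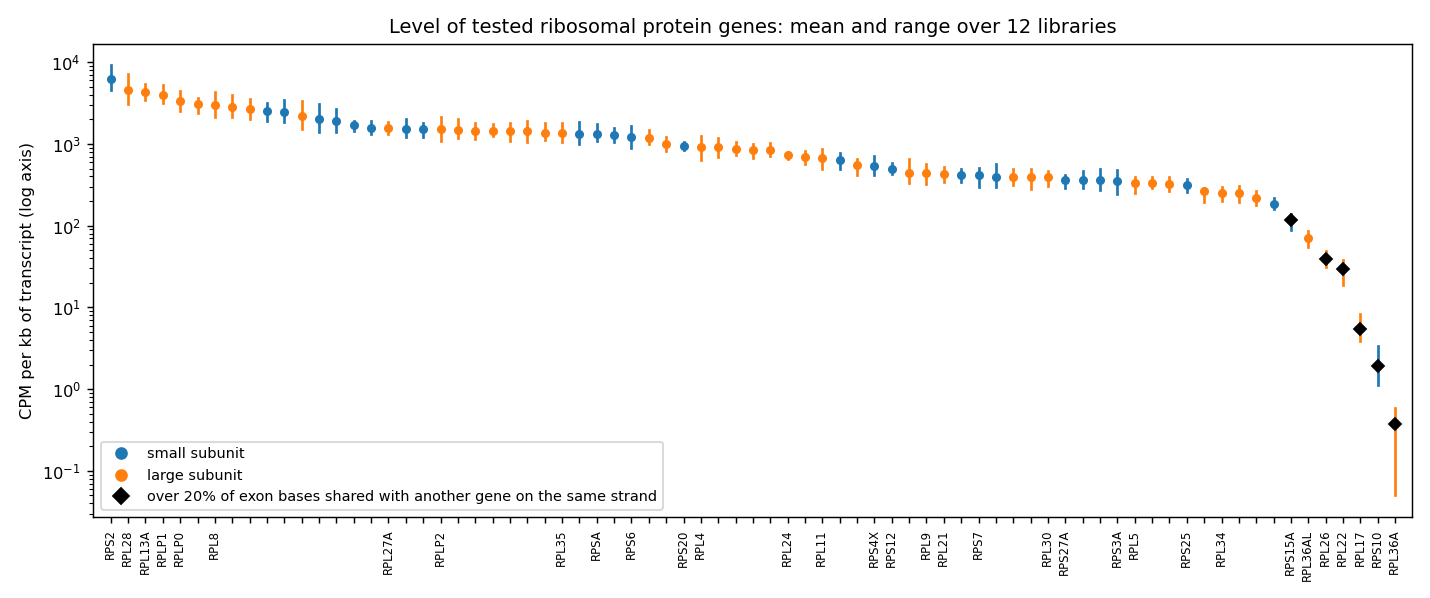
Mean CPM per kb of transcript (log axis) of 75 of the tested genes in order of level, the genes described in the text labelled, with a line from the lowest to the highest of the 12 libraries. Blue marks the small and orange the large subunit, and black diamonds mark genes that share over 20% of their exon bases with another gene on the same strand. All of these lie at the low end, with RPL36A lowest.

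At the other end stood RPL36A with 0.3756 CPM per kb, and RPS10 with 1.943, RPL17 with 5.425 and RPL22 with 29.61 were also low. RPL26 was at 39.56, RPL36AL at 71.09 and RPS15A at 117.4 CPM per kb. Of these, all but RPL36AL share over 20% of their exon bases on the same strand with another gene model of GENCODE 29: 82.55% for RPL17, 77.02% for RPS10, 58.97% for RPL26, 48.19% for RPL36A, 29.26% for RPL22 and 21.33% for RPS15A. The 71 tested genes that share no more than 20% had a median of 939 CPM per kb, with RPL36AL the lowest. The overlapping models took few counts themselves: over all 12 libraries RPL17-C18orf32 held 13, RPS10-NUDT3 held 1 and RPL36A-HNRNPH2 none, beside 1985 for RPL17, 648 for RPS10 and 130 for RPL36A. No source used here states how the authors' counting treated reads over shared exons, and the part of the overlap in these low values was not tested.

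RPL36A (ENSG00000241343, chromosome X, 101390824 to 101396154, GRCh38, GENCODE 29) and RPL36AL (ENSG00000165502, chromosome 14, 49618519 to 49620685) encode near-identical large-subunit proteins. RPL36AL, with no shared exon bases, held 40.31 to 64.89 CPM, and RPL36A 0.0347 to 0.409 CPM, which is 2 to 18 counts per library. Pseudogenes named after a ribosomal protein gene numbered 1593, of which 751 had counts, and together they took 1.787% as many counts as their parent genes. For RPL36A, RPL17 and RPS10 the pseudogenes held more counts than the parent: 6180 against 130, 5627 against 1985 and 1703 against 648. Reads from such copies and from the parent cannot be told apart here with certainty, so the values of these 3 genes are uncertain.

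As genes, the 80 single loci were short and rich in small nucleolar RNAs, the guides of rRNA modification. Their median transcript had 705 bases in 5 exons, against 2299 bases in 8 exons for the 13338 other protein-coding genes tested. Within the span of 28 of the 80 genes (35%) lies an annotated snoRNA on the same strand, against 1.34% of the others. GC content of their transcripts ran from 39.66% to 63.58%, with a median of 49.7%, close to the 50.79% of the other genes. They were spread over the genome, with 12 on chromosome 19, 7 on chromosome 3 and 4 on chromosome X.

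Together the ribosomal protein genes took 6.28% to 7.74% of all counts. The share was 6.78%, 7.41% and 6.96% in the intact untreated libraries, and 6.45%, 6.82% and 6.28% in intact PRL. In the deleted pair it was 6.74%, 7.58% and 7.23% untreated and 7.07%, 7.74% and 7.72% with PRL. The deleted PRL libraries thus all lay above the intact PRL libraries, while each of these groups overlapped at least 1 untreated group. Group means were 7.05% ± 0.33, 6.52% ± 0.28, 7.18% ± 0.42 and 7.51% ± 0.38 (SD, n = 3). Both subunits followed this order: the small-subunit share was 2.49% ± 0.12 in intact PRL and 2.83% ± 0.13 in deleted PRL, and the large-subunit share 4.02% ± 0.16 and 4.67% ± 0.26. The exact binomial 95% interval of a library's share was at most 0.0174 percentage points wide. That interval covers counting error only, since reads without molecular identifiers are not independent molecules, and differences between libraries of 1 group were far wider.

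**Figure D2:**
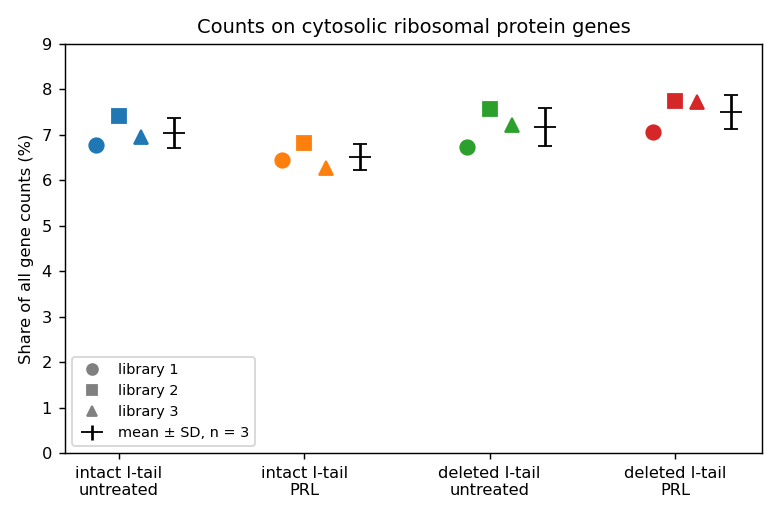
Percent of all gene counts that fell on the 83 genes, for each library (circle, square and triangle for libraries 1, 2 and 3 of a group), with the group mean and SD in black. The 3 deleted PRL libraries sit between 7.07% and 7.74%, above the 3 intact PRL libraries at 6.28% to 6.82%.

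Other properties of these libraries are set beside the share, and none was related to it library by library. The summed epithelial and basal markers overlapped, at 2157 to 8351 CPM in intact PRL and 2337 to 10640 CPM in deleted PRL. The epithelial and basal markers had a median log2 fold change of 0.52 for the deletion under PRL and 0.53 averaged. Of the 9, 7 were above 0 and 0 were called in both contrasts. A term for the title runs called 2 of 9 for the averaged deletion effect, where it called 11 of all 17677 genes. Averaged over treatments CDH1, the epithelial cadherin, stood at 0.89 and TP63, a basal transcription factor, at 0.74, whereas KRT18 and KRT8, the luminal keratins, stood at -0.33 and -0.25. The part of these markers in the share was not tested. Mitochondrially encoded genes took 10.8% to 13.6% of the counts in intact PRL and 9.93% to 11.8% in deleted PRL libraries. With counts of nuclear protein-coding genes as the denominator, the ribosomal protein share was 7.22% to 7.74% in intact PRL and 8.13% to 8.87% in deleted PRL, so the groups still did not overlap. The TMM factors, which the scaled values below use, were 0.79 to 1.10 in intact PRL and 0.931 to 1.12 in deleted PRL. On that scale the mean log2 CPM of the 78 genes was 8.58, 8.81 and 8.65 in intact PRL and 8.70, 8.92 and 8.94 in deleted PRL, and the groups overlapped. In bulk RNA, a change in the number of cells of a kind and in RNA per cell cannot be told apart.

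PRL did not change any ribosomal protein gene past the test in either receptor pair. With the intact I-tail, 0 of 78 genes were called at an adjusted p under 0.05 (edgeR quasi-likelihood test with Benjamini-Hochberg adjustment over all 17677 genes), where 0.017% of all genes were called, and 0 had an unadjusted p under 0.05 (2.55% of all genes). The counts for the deleted I-tail were likewise 0 called (0.017% of all genes) and 0 at an unadjusted p under 0.05 (1.79%). For the average of both pairs they were 0 called (0.119%) and 0 (3.81%). DESeq2, limma-voom and every other alternative run for these contrasts also called 0. The intervals bound what could have been missed: for the averaged effect, the 95% interval of 77 of 78 genes lay within a 2-fold change in either direction and that of 70 genes within 1.5-fold. Within each pair the intervals were wider, and those of 55 genes in the intact and 43 in the deleted pair lay within 1.5-fold.

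The direction of the small shifts differed between the receptor pairs. With the intact I-tail the median log2 fold change of the 78 genes after PRL was -0.04, against -0.01 over all genes, and 29 of 78 were above 0. This median was 0.006 with an offset for GC content and transcript length. With the deleted I-tail the median was 0.13, against -0.02 over all genes, and 71 of 78 were above 0, where 47.1% of all genes were. That median stayed above 0 under each scaling tried, at its lowest 0.04 with library size as the only scaling. The averaged median of 0.05 turned to -0.06 with library size alone, a scaling that moved the median of all genes from -0.02 to -0.12. The averaged median was 0.06 for the small and 0.04 for the large subunit.

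**Figure D3:**
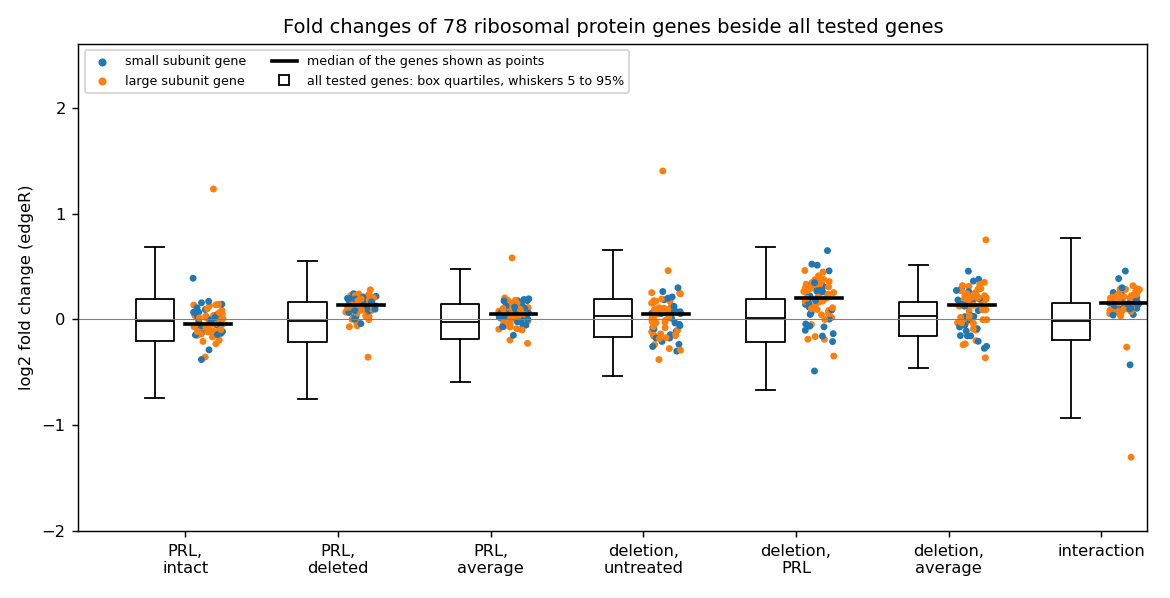
Log2 fold changes of the 78 genes (blue small subunit, orange large subunit, black bar their median) for the 7 contrasts, beside a box of all 17677 tested genes (quartiles, whiskers from the 5th to the 95th percentile). The points lie within a narrower band than all genes, apart from RPL36A at 1.23, 1.40 and -1.30, and their median is highest for the deletion effect under PRL at 0.20.

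The genes with the smallest p after PRL were low in counts or close to no change. In the intact pair, RPL36A went from 0.0927, 0.248 and 0.0347 CPM untreated to 0.302, 0.209 and 0.341 CPM with PRL, and the groups overlapped. Its log2 fold change was 1.23 ± 0.73 (SE, adjusted p = 1 in edgeR). It was -0.05 once pseudogene counts were added, 2.17 without intact untreated library 2 and 0.73 without intact untreated library 3. The second was RPS3A, a small-subunit protein, at -0.29 ± 0.19 (adjusted p = 1), with -0.43 without intact PRL library 1 and -0.15 with the offset for GC content and length. In the deleted pair they were RPL17, which lines the exit tunnel, at -0.36 ± 0.25 and RPL35, near the tunnel's end, at 0.28 ± 0.22, each with an adjusted p of 1. RPL17 was at -0.19 without deleted untreated library 2 and -0.09 with pseudogene counts, and RPL35 at 0.11 without deleted PRL library 3 and 0.44 without deleted PRL library 1. For the average they were RPL35 at 0.20 ± 0.16 and RPL17 at -0.23 ± 0.18, with an adjusted p of 0.98 each. These averages were also unsteady, with RPL35 at 0.09 when intact PRL library 2 was omitted, 0.125 when deleted PRL library 3 was, and 0.08 with library size alone, and RPL17 at -0.14 without deleted untreated library 2. RPS6, the substrate of the S6 kinases downstream of mTOR, stood at -0.05 ± 0.14 for the average (adjusted p = 0.983), and turned to 0.044 with the offset for GC content and length.

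By overlap of scaled log2 CPM, PRL separated few of these genes. In the intact pair 2 of 78 genes, RPS12 among them, stood lower in all 3 PRL libraries than in all untreated ones (2.88% of all genes), and 1 stood higher (2.61%). In the deleted pair RPS12 and RPL36AL stood higher (2 of 78, against 3.29%) and 0 lower (4.97% of all genes). RPL36AL held 54.42, 55.39 and 48.77 CPM in deleted untreated and 59.55, 64.89 and 55.71 CPM in deleted PRL libraries. The gap between the groups was narrow, at 55.39 against 55.71 CPM.

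Deletion of the I-tail did not change any ribosomal protein gene past the adjusted test either, yet under PRL the genes stood mostly higher in the deleted pair. Among untreated cells 0 of 78 were called (0.00566% of all genes) and 0 had an unadjusted p under 0.05 (0.837%), with a median of 0.06, against 0.03 over all genes. That untreated median was -0.003 with the GC and length offset. Under PRL 0 of 78 were called (0.00566% of all genes), with a median of 0.20, against 0.015 over all genes, and 64 of 78 were above 0, where 52% of all genes were. At an unadjusted p under 0.05, 10 of 78 were higher (0.809% of all genes) and 0 lower (1.62% of all genes in either direction). They were RPS3A, RPS7, RPS6, RPS12, RPS25, RPL4, RPL9, RPL21, RPL30 and RPL34. The smallest adjusted p among the 78 was 0.9997. For the average over both treatments 0 were called (0.00566%), and 12 were higher at an unadjusted p under 0.05 (1.03% of all genes, and 2.28% in either direction). The effects on RPL36A and RPL17, which had the smallest p in untreated cells, were 1.40 ± 0.72 and 0.46 ± 0.25 (adjusted p = 0.9998 each). With pseudogene counts they were 0.09 and 0.13. RPL36A was at 2.31 and 0.88 without intact untreated library 2 and 3, and RPL17 at 0.30 without deleted untreated library 2.

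The count of 10 changed with the libraries in the fit, also when untreated libraries, which this contrast does not compare, were left out. It was 17 when intact PRL library 1 was left out, a fit in which 9.94% of all genes also passed. Leaving out intact PRL library 2 or 3 gave 4 (1.45% of all genes) and 2 (1.61%). Dropping deleted PRL library 1, 2 or 3 gave 5, 6 and 6, where 1.68%, 1.08% and 2.23% of all genes passed. The count was 10, 7 and 5 when intact untreated library 1, 2 or 3 was omitted (1.53%, 1.92% and 1.36% of all genes). For the deleted untreated libraries, in the same order, it was 5, 8 and 6 (1.34%, 1.42% and 1.29%). For the averaged effect the count of 12 was 7, 3 and 9 without deleted untreated library 1, 2 or 3 (2.12%, 1.58% and 1.6%). Without deleted PRL library 1, 2 or 3 it was 6, 4 and 9 (1.81%, 1.66% and 3.79% of all genes). Without intact untreated library 1, 2 or 3 it was 10, 6 and 4 (6.39%, 1.38% and 2.41%). Leaving out intact PRL library 2 or 3 gave 5 (1.57%) and 2 (2.18%). Leaving out intact PRL library 1 gave 16, of which 15 were higher, where 11.3% of all genes passed. For the deletion under PRL the count was 14 with DESeq2 (2.37% of all genes) and 13 with limma-voom (1.58%). It was 5 with RLE scaling (1.66%), 30 with library size alone (1.44%) and 3 of 80 with no count filter (2.41%). The averaged count of 12 was 6 with RLE scaling, 31 with library size alone, 5 with no count filter and 7 with the GC and length offset, where 2.27%, 2.26%, 4.93% and 2.65% of all genes passed. With a term for the title runs, the count under PRL was 30, where 7.4% of all genes passed. The averaged count was then 29, of which 28 were higher, where 13.4% of all genes passed. The median effect under PRL was steadier, at 0.147 to 0.245 over the 12 fits that each left out 1 library.

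RPS3A (ENSG00000145425, chromosome 4, 151099573 to 151104652), whose protein sits on the solvent side of the small subunit, had the largest of these differences. It held 277, 211 and 209 CPM in intact PRL and 322, 370 and 401 CPM in deleted PRL libraries, and 291, 255 and 304 against 298, 410 and 313 CPM untreated. All deleted PRL values exceeded all intact PRL values, while the untreated groups overlapped. Its log2 fold change under PRL was 0.65 ± 0.19 (SE, 95% interval 0.24 to 1.06, adjusted p = 0.9997), and averaged over treatments 0.46 ± 0.13 (adjusted p = 0.991). An exon share of 24.25% overlaps SH3D19 on the opposite strand, and no source used here states whether counting used strand, so reads of the pair cannot be told apart.

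RPS7 (ENSG00000171863, chromosome 2, 3575205 to 3580920), a small-subunit protein that can also bind MDM2, held 308, 230 and 246 CPM in intact PRL and 389, 350 and 380 CPM in deleted PRL libraries. Untreated it held 312, 253 and 303 CPM in the intact and 324, 353 and 329 CPM in the deleted pair. In each treatment the deleted libraries all exceeded the intact ones. The log2 fold change was 0.51 ± 0.17 under PRL (adjusted p = 0.9997) and 0.36 ± 0.12 averaged (adjusted p = 0.991). RPS6 held 1034, 805.4 and 865.6 CPM in intact PRL and 1299, 1402 and 1017 CPM in deleted PRL, where 1017 lay below the highest intact value. Its averaged deletion effect was 0.38 ± 0.14 (adjusted p = 0.991).

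Counted by overlap, 23 of 78 genes (29.5%) had all 3 deleted PRL libraries above all 3 intact PRL libraries in scaled log2 CPM, against 2.89% of all genes. They include RPL23, RPL31 and RPL39 of the large subunit and RPS12, RPS20 and RPS27A of the small one. Of the 78, 1 stood lower without overlap (2.06% of all genes). In untreated cells 4 of 78, which were RPL4, RPS12, RPS25 and RPS7, stood higher in the deleted pair without overlap (3.58% of all genes) and 0 lower (1.91%). These genes vary together from library to library, so they do not count as separate observations of the condition.

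The size of the deletion effect followed base composition. Across the 78 genes the log2 fold change of the deletion had r = -0.60 with transcript GC content under PRL and -0.60 in untreated cells, as a description over genes that share libraries. Among the 1739 other protein-coding genes of at least 100 CPM the same r was -0.63 and -0.61, and among all 13330 others -0.32 and -0.25. The 39 genes below the median GC had a median deletion effect of 0.27 under PRL, and the 39 at or above it 0.09. In untreated cells the medians were 0.10 and -0.07. With an offset for GC content and length the median of the 78 under PRL was 0.11 in place of 0.20, against -0.005 over all genes, and 9 had an unadjusted p under 0.05 (2.02% of all genes), 8 of them higher. Which step of library making or which property of the cells GC content stands for here was not tested.

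**Figure D4:**
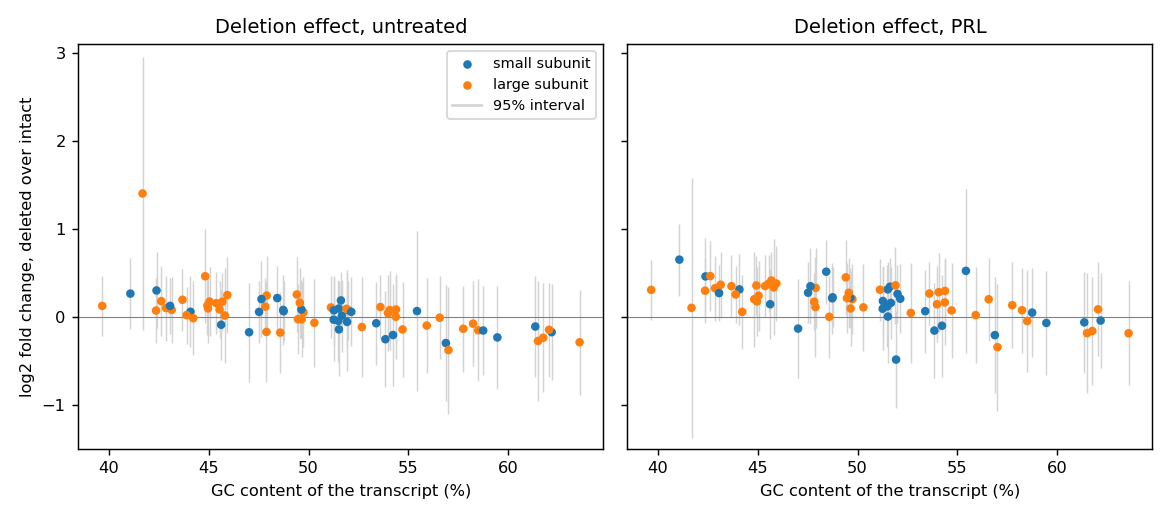
Log2 fold change of the deleted over the intact receptor pair against transcript GC content for the 78 genes, untreated (left) and under PRL (right), with 95% intervals in grey. Points fall from left to right in both panels (r = -0.60 in each), and the medians below and above the middle GC value are higher under PRL, at 0.27 and 0.09, than untreated, at 0.10 and -0.07.

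The interaction compared the PRL effect of the deleted pair with that of the intact pair. None of the 78 genes was called (0% of all genes, 0 also by DESeq2 and limma-voom), and 0 had an unadjusted p under 0.05 (0.718% of all genes). The median interaction was 0.16, against -0.02 over all genes, and 75 of 78 genes were above 0, where 47.2% of all genes were. Between 75 and 77 of the 77 to 80 genes tested were above 0 under each scaling, filter and tool tried, the GC and length offset included. These settings reuse the same libraries, across which the genes vary together, so the genes do not count as separate observations. The median ranged from 0.085 to 0.275 when 1 library was left out. The 2 smallest p belonged to RPS3A (0.39 ± 0.27, adjusted p = 1) and RPL34 (0.29 ± 0.21, adjusted p = 1). The median half-width of the 95% interval was 0.607, so single genes could not be told from 0 at this size.

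RPS12, a small-subunit protein, was singled out as the steadiest gene of all 78, a choice that favours groups without overlap. It held 304, 306.5 and 302 CPM in intact untreated and 293, 269 and 285 CPM in intact PRL libraries. In the deleted pair it held 327.5, 331 and 315 CPM untreated and 364, 339.5 and 347 CPM with PRL. No group overlapped another: intact PRL was lowest, then intact untreated, deleted untreated and deleted PRL. The differences were small, with log2 fold changes after PRL of -0.11 ± 0.14 and 0.11 ± 0.14, under the deletion of 0.09 ± 0.14 untreated and 0.31 ± 0.14 with PRL, and an interaction of 0.22 ± 0.20 (adjusted p = 1). These standard errors come from a spread that the fit shares among genes of like abundance. The SD of RPS12 itself within groups was 0.045 on the log2 scale, the lowest of the 78. Its deviations within groups ran against the mean of the other genes (r = -0.494), so it does not stand for the set. The share of all genes with such a separation of all groups was not counted.

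Across roles, the fixed groups had different medians, and these differences were not tested. The stalk genes RPLP0, RPLP1 and RPLP2, whose products recruit the translation factors, had levels of 2537 to 4454, 1389 to 2351 and 700.6 to 1363 CPM and averaged PRL effects of 0.11, 0.08 and 0.15. Their averaged deletion effects were -0.04, -0.002 and -0.24, below the median of the 78, and the GC content of their transcripts, 52.67%, 57.75% and 63.58%, lay above the set's median of 50.02%. The 5S RNP genes RPL5 and RPL11, whose products carry 5S rRNA and can inhibit MDM2, held 258.7 to 409.3 and 434.6 to 769.1 CPM. RPL5 and RPL11 had averaged PRL effects of -0.09 and 0.06 and averaged deletion effects of 0.21 and 0.29. The 7 tested genes of the decoding site and mRNA channel had a median averaged PRL effect of 0.18 and deletion effect of -0.11, and the 8 of the exit tunnel -0.03 and 0.16. In all of these lists 0 genes were called in any contrast.

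RPSA, whose product is also known as the laminin receptor precursor, ran from 1122 to 1821 CPM with group means of 1311 ± 163.5, 1375 ± 341.5, 1281 ± 115.9 and 1465 ± 314.1 CPM (SD, n = 3), in the order intact untreated, intact PRL, deleted untreated and deleted PRL. The group means of RPS4X, the X-linked form of this small-subunit protein, were 772.7 ± 59.25, 700.1 ± 69.14, 888.3 ± 169.7 and 890.6 ± 177.5 CPM. RPS27A, made as a fusion with ubiquitin, had 252.4 ± 28.4, 230.5 ± 26.02, 262.3 ± 16.85 and 278.7 ± 14.74 CPM. The untreated groups overlapped for all 3. RPS27A alone of the 3 had no overlap between intact PRL and deleted PRL libraries.

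Between libraries of 1 group the ribosomal protein genes did not move as a single block. The median SD of log2 CPM within groups was 0.217 for the 78 genes, 0.292 for other protein-coding genes of at least 100 CPM and 0.408 for all genes tested. It was smallest for RPS12 (0.045), RPL24 (0.066) and RPS20 (0.081), and largest for RPL36A (0.556), RPS10 (0.537) and RPL28 (0.482). Of these, RPL36A and RPS10 have few counts, whereas RPL28 ran from 2066 to 4825 CPM. Over the 3003 gene pairs the median correlation of deviations from the group means was 0.303, with quartiles of -0.227 and 0.76. Of the 78 genes, 61 deviated with the mean of the others, RPL27A closely among them (r = 0.968), and 17 against it, led by RPL5 (r = -0.669). The 17 had a median GC content of 44.93% and the 61 of 51.67%. These correlations rest on 12 libraries with 8 degrees of freedom and describe the libraries only.

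**Figure D5:**
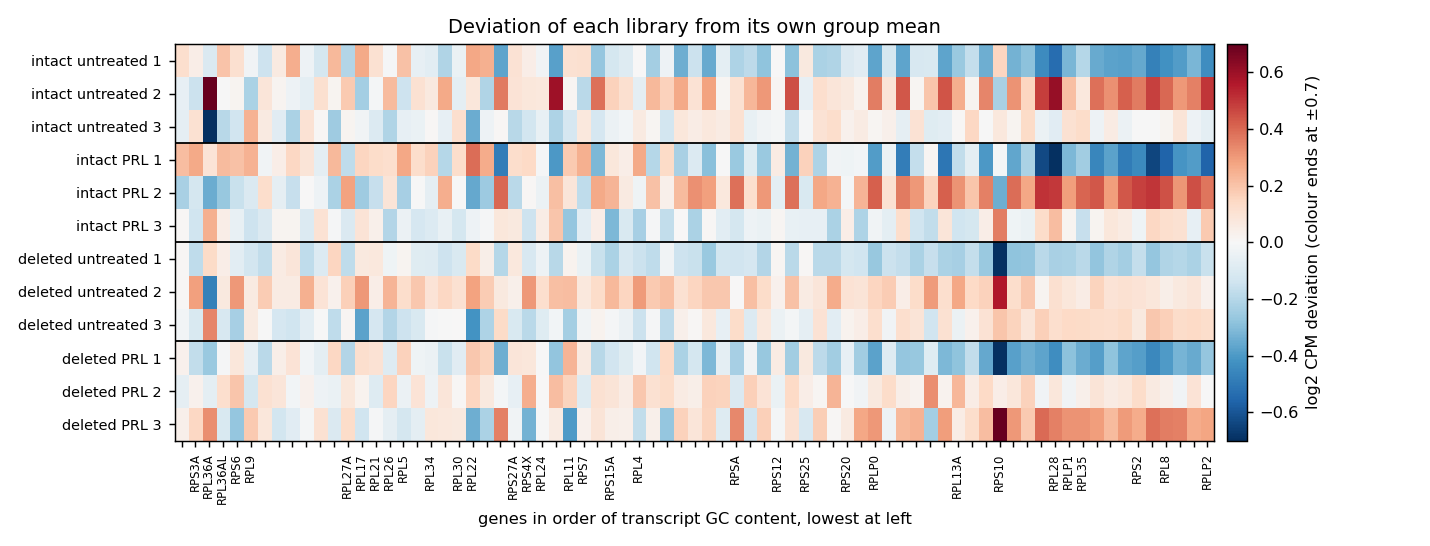
Deviation of log2 CPM from the mean of the library's own group for 75 of the genes in order of transcript GC content (lowest at left, genes described in the text labelled) in the 12 libraries, red higher and blue lower. GC-rich genes at the right were lower in library 1 of each group and higher in intact untreated 2, intact PRL 2 and deleted PRL 3, whereas GC-poor genes at the left moved less or the opposite way.

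In the library numbered 1 of each group, r between GC content and the deviation over the 78 genes was -0.689, -0.751, -0.574 and -0.665, and in intact PRL library 2 it was 0.727. The other 1739 abundant genes gave -0.652, -0.685, -0.308, -0.56 and 0.574 in the same libraries, with the same signs as the ribosomal protein genes. The genes outside the list that followed the mean log2 CPM of the 78 most closely over the 12 libraries were PA2G4 (r = 0.959, 53.9 to 76.2 CPM), PPIA (0.925, 504.5 to 762.7 CPM), the pseudogene RPL13AP5 (0.921), NOP56 (0.918) and URB2 (0.914). RPL13AP5 is a near-identical copy of RPL13A, and its reads could come from the parent gene.

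Among genes that build or regulate ribosomes 0 were called in any contrast. A term for the title runs called 2 biogenesis genes and 1 RNA polymerase I gene higher for the averaged PRL effect. With that term 198 of all 17677 genes were called for the same effect. Of 38 ribosome biogenesis genes 0 were called, with a median averaged PRL effect of 0.10 and 28 above 0. The smallest p belonged to RRS1 (0.49 ± 0.24, adjusted p = 0.98), a factor for 5S RNP assembly, and LYAR (0.50 ± 0.28, adjusted p = 0.98). Of 15 RNA polymerase I genes 0 were called (median 0.03), with the smallest p for the polymerase subunits POLR1G (0.77 ± 0.25, adjusted p = 0.802) and POLR1C (0.22 ± 0.16, adjusted p = 0.98). Of 21 mTOR and TOP control genes 0 were called (median 0.15), with EIF4EBP1, the translational repressor, at 0.65 ± 0.34 and AKT1 at 0.30 ± 0.18 (adjusted p = 0.98 each).

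The other mRNAs known for TOP control, mostly elongation and initiation factors, can be set beside the ribosomal protein genes. Of 22, 21 were tested and 0 called, with EIF3E (0.18 ± 0.12) and TPT1 (-0.15 ± 0.12) at the smallest p (adjusted p = 0.98 each). Their median was -0.07 for the averaged PRL effect and 0.20 for the deletion under PRL, the latter equal to that of the ribosomal protein genes. Among 77 tested mitochondrial ribosomal protein genes 0 were called, with medians of 0.06 and 0.10 for these contrasts, and MRPL44 (-0.24 ± 0.14) and MRPL2 (0.34 ± 0.20) had the smallest p after PRL (adjusted p = 0.98 each). FAU and the ribosome-bound scaffold gene RACK1 had averaged PRL effects of 0.17 ± 0.17 and 0.09 ± 0.17 (0 of 2 called). Of the 7 diverged copies left out by the rule, 6 were tested and 0 called, with a median of -0.07, and RPS27L (-0.12 ± 0.13) and RPL39L (0.18 ± 0.22) had the smallest p.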

How the data were processed

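Counts per gene were read from polyA RNA of 12 libraries. The deposited table holds whole-number counts per Ensembl gene. Per the submitters' processing notes, the tools were FastQC, STAR 2.7.9a and featureCounts (Subread), on GRCh38. No source used here gives the annotation release, strand setting or treatment of shared and multiply mapped reads. 1 entry without values was left out. R 4.3.3 was used. Genes passing filterByExpr were tested with edgeR 4.0.16, using TMM factors, a mean for each of 4 groups and robust dispersions. The 7 contrasts were adjusted over all 17677 genes, and the fit leaves 8 residual degrees of freedom. Log2 CPM used a prior count of 2. GC content, length and exon sharing came from GENCODE 29, and start sites from RefSeq. The fit was checked on simulated data. Named genes were the 2 smallest p per contrast, the 5 highest and lowest per kb, the 3 largest and smallest SDs, fixed roles and the 5 closest genes outside. Genes listed by unadjusted p or by overlap were named after their values were seen. The ribosomal protein genes and the gene lists were chosen with earlier results of these data known. Alternatives were 3 scalings, 2 filters, DESeq2 1.42.0 and limma-voom (limma 3.58.1), a title-run block, added pseudogene counts, each library left out and, chosen after seeing the data, an offset for GC content and length. The total counts of 36120808 to 57324865 per library set the counting precision. Values of a few single genes are not reported here, and counts over all 78 genes include them.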

Additional observations from a re-analysis of the deposited data

Results flagged for a closer look

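The 26 genes picked by the naming rules were screened on the log2 CPM scale. In 4 of them every treated library lay below the untreated mean with the intact I-tail and above it with the deleted one. This count covers those 26 only, and no share over all genes stands beside it. RPL34 was among the 26 for its small interaction p, and RPS12 and RPS20 for their small SDs within groups. Both choices favour such a split, so the count is a description only. The difference between these shifts was 0.296 for RPL34, 0.218 for RPS12, 0.188 for RPS20 and 0.219 for RPS27A. RPL34 moved by -0.21 and 0.09, RPS12 by -0.11 and 0.11, RPS20 by -0.10 and 0.09 and RPS27A by -0.13 and 0.09. The interaction test in edgeR did not call any of the 4, with unadjusted p of 0.191, 0.305, 0.404 and 0.359 and an adjusted p of 1 each.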

How the results depend on the processing

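In each of the 7 contrasts, 0 ribosomal protein genes were called under any of the 22 alternatives run, with 77 to 80 genes tested. Their median log2 fold change moved by less than the SD of the library means within groups (0.134) in all of these. Over the fits that left out 1 library it ranged from -0.135 to 0.045 for PRL with the intact I-tail, from 0.068 to 0.216 with the deleted one and from 0.01 to 0.098 averaged. For the deletion it ranged from -0.031 to 0.095 untreated, from 0.147 to 0.245 under PRL and from 0.075 to 0.155 averaged, and for the interaction from 0.085 to 0.275.

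With nuclear protein-coding counts as the denominator, the share was 8.167% in intact untreated, 7.513% in intact PRL, 8.294% in deleted untreated and 8.561% in deleted PRL, which follows from the smaller denominator. Leaving out 1 library gave 6.868% to 7.182%, 6.364% to 6.633%, 6.986% to 7.402% and 7.393% to 7.726% of all counts.

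RPL36A turned from 1.231 to -0.054 for PRL with the intact I-tail when pseudogene counts were added. The averaged PRL effect of RPS6 was 0.044 with the GC and length offset in place of -0.053. It ranged from -0.107 to 0.033 when 1 library was left out, and was above 0 without deleted untreated library 2 (0.033) and without deleted PRL library 3 (0.013). The cause was not tested.

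A replicate block for the titles 1 to 4, 5 to 8 and 9 to 12, which the labels do not call a batch, raised the genes at an unadjusted p under 0.05 from 10 to 30 for the deletion under PRL, where 7.4% of all genes passed. It called 0 of the 78 in any contrast, with a lowest adjusted p of 0.2439, for the averaged deletion effect, and gave a median of 0.197 under PRL. Deviations of same-run libraries correlated at 0.097 to 0.603, so not every pair passed 0.1, and 12 of 12 libraries correlated best with 1 of their own run, a hint from the data. In each run the deleted PRL library had the highest and the intact PRL library the lowest share. The block also called 2 ribosome biogenesis genes and 1 RNA polymerase I gene for the averaged PRL effect, where it called 198 of all 17677 genes. Of the 9 epithelial and basal markers it called 1 for that effect. It called 2 of them for the averaged deletion effect, where it called 11 of all genes. Without the block 0 genes of these lists were called.

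Counts of calls over all genes moved by more than 1.5 times in some settings. With the block they were 62 and 57 for PRL in the intact and deleted pair against 3 each, and 198 against 21 averaged. With no count filter they were 6 and 4 for the deletion untreated and under PRL and 33 averaged, against 1 each. The lowest were 1, 1 and 11 for the PRL contrasts.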
